A study of Mus musculus with 3 samples.

Results

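The 55 genes described here are those of central carbon metabolism: the enzymes and transporters of glucose uptake, glycolysis and lactate handling, the pentose phosphate pathway, and the entry of pyruvate into the tricarboxylic acid (TCA) cycle with the cycle itself and its cytosolic partners. They were taken by name from a list of enzymes drawn up with earlier results of these data known, and all 55 were found among the 55536 annotated genes. Their RNA was measured in the cytosolic fraction of macrophages cultured from C57BL/6J mouse bone marrow (BMDM), after 30 min with 100 ng/ml Lipid A, the part of bacterial lipopolysaccharide that is sensed by Toll-like receptor 4. The labels give no other genotype, allele or agent, and state neither the age nor the sex of the animals. The series has 1 group of 3 libraries of ribosomal RNA-depleted total RNA, called replicates 1, 2 and 3 after the numbers in the labels. These are numbered as biological replicates but tie all of them to the same donor record, so errors and p-values cover the spread of these samples alone, part of which may be technical. Unstimulated cells and a nuclear fraction were not analysed here. The values are therefore levels at 1 time, and no gene is called induced or repressed.

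Glycolysis splits glucose into pyruvate in the cytosol and yields ATP quickly, without oxygen. The pentose phosphate pathway branches off it to supply NADPH, which macrophages need for the oxidative burst and for glutathione, and ribose for nucleotides. The TCA cycle oxidises acetyl units in mitochondria and feeds electrons to the respiratory chain. Macrophages that sense bacterial products are known to raise glucose uptake and lactate release, and several TCA intermediates, such as citrate, succinate and itaconate, act as signals in them. Many steps are served by several isozymes encoded by different genes, with different regulation, and which isozyme a cell uses is part of its metabolic identity.

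Levels are given as TPM as deposited, the abundance of a transcript corrected for its length and for sequencing depth, a unit that allows genes to be compared with each other. Gene rows received 23403552, 50435201 and 35785896 expected counts in replicates 1, 2 and 3. Nuclear protein-coding genes held 22.3%, 34.4% and 24.3% of all TPM in replicates 1, 2 and 3. The rest fell on other rows, so the scale differs between libraries. The deposited TPM was highest in replicate 2, the library with the largest such share, for 50 of the 55 genes. Libraries were therefore compared on CPM, counts relative to the depth of the library and not corrected for length, with library sizes scaled by the trimmed mean of M-values (TMM), or on TPM rescaled so that nuclear protein-coding genes alone sum to the same total in each library, called rescaled TPM here. The libraries also differed in composition. The 10 stromal marker genes, such as collagens, were all highest in replicate 1 and summed to 293, 0.600 and 1.30 CPM in replicates 1, 2 and 3, and the nuclear RNA Malat1 reached 3826, 1284 and 6469 CPM. In bulk RNA, fewer cells of a type and less RNA per cell cannot be told apart. All 10 macrophage markers, among them Adgre1, Cd68 and Csf1r, were at 10 TPM or more.

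Nearly all of the pathway was present. A mean of 1 TPM or more was reached by 53 of the 55 genes, 10 TPM or more by 37, and 100 TPM or more by 5, compared with 42.7%, 18.0% and 1.91% of the 22015 nuclear protein-coding genes. The median over the 55 genes was 21.3 TPM, and that of the 9403 nuclear protein-coding genes at 1 TPM or more was 7.80 TPM. The genes below 1 TPM were Pcx, pyruvate carboxylase, and Me1, the cytosolic malic enzyme. In sum the 55 genes held 0.733%, 0.803% and 0.810% of nuclear protein-coding TPM in replicates 1, 2 and 3. Gapdh alone made up 16.3% of that sum, and the 5 highest genes 40.9%.

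**Figure D1:**
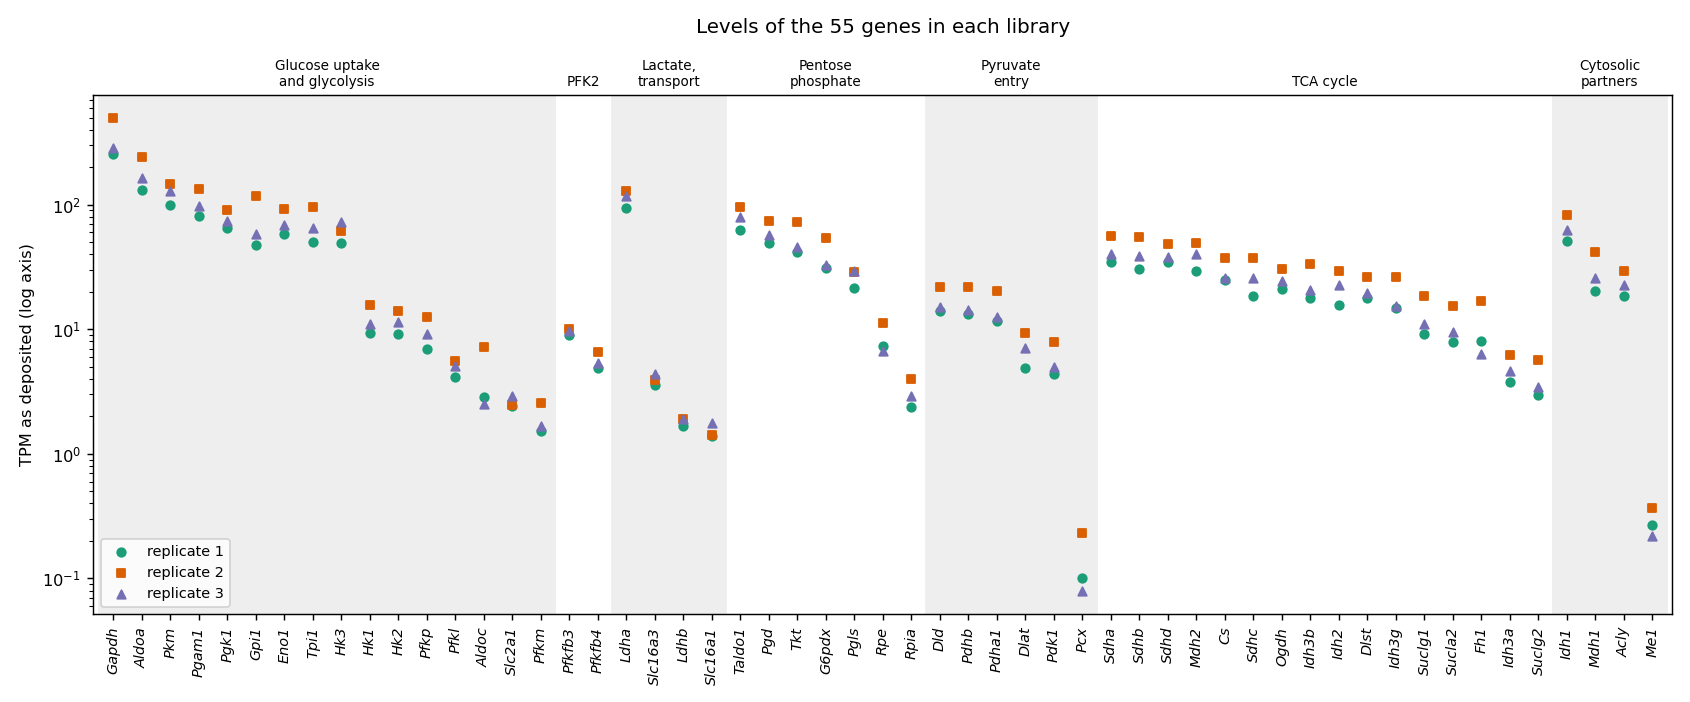
TPM as deposited (vertical log axis) of each of the 55 genes (horizontal axis), grouped by role and ordered by mean within each role; each point is 1 library. Gapdh stands highest with a mean of 346 TPM, Pcx lowest with 0.137 TPM, and replicate 2 lies on top for 50 of the 55 genes on this scale.

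Glycolysis held the most abundant genes. Its 16 genes, counting the glucose transporter, had a median of 66.3 TPM, and 11 of them were at 10 TPM or more. Gapdh, glyceraldehyde phosphate dehydrogenase (chr6:125161715-125166467, mm10, minus strand), was listed at 254, 496 and 287 TPM in replicates 1, 2 and 3. Aldoa, the aldolase that cleaves fructose bisphosphate, followed with 131, 242 and 164 TPM. Pkm, the pyruvate kinase that makes pyruvate and ATP in the last step, had 99.4, 146 and 130 TPM. In rescaled TPM these 3 genes stood at 1255 ± 165, 656 ± 60.0 and 468 ± 57.7 (SD, n = 3), and the ranges of Gapdh and Aldoa, and of Aldoa and Pkm, did not overlap.

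The other enzymes of the main route from glucose phosphate to pyruvate followed. Pgam1, phosphoglycerate mutase, had 104 ± 26.1 TPM (SD, n = 3), Pgk1, phosphoglycerate kinase, 77.1 ± 13.5, Gpi1, glucose phosphate isomerase, 74.0 ± 37.3, Eno1, enolase, 73.4 ± 17.4, and Tpi1, triose phosphate isomerase, 70.9 ± 23.4. The ranges of neighbours among Pgk1, Gpi1, Eno1 and Tpi1 overlapped also after rescaling, so their order is within the spread of the libraries.

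The first steps commit glucose to the pathway. Of the hexokinases, which trap glucose as glucose phosphate, Hk3 was the most abundant with 49.4, 62.1 and 73.4 TPM in replicates 1, 2 and 3, a range that overlaps those of Gpi1, Eno1 and Tpi1. Hk1 had 9.39, 15.8 and 11.0 TPM, and Hk2, the isozyme known to be inducible, 9.22, 14.1 and 11.5 TPM. Hk3 lay above both others in every library, at 5.17 times Hk1 and 5.33 times Hk2. Over all transcripts Hk1 and Hk2 overlapped, with a log2 ratio of Hk2 to Hk1 of -0.05 ± 0.11 (SD, n = 3). The sign of this ratio changed in replicate 3. A transcript of 594 bases without a coding sequence held 23.5%, 24.6% and 23.7% of Hk2 TPM in replicates 1, 2 and 3. Coding transcripts held 76.5%, 75.4% and 76.3% of Hk2 TPM, and 99.9%, 99.9% and 99.7% of Hk1 TPM. The ratio over coding transcripts alone was not tested.

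All 3 phosphofructokinase genes, for the main regulated step of glycolysis, were detected. Pfkp, the platelet type, had 6.96, 12.6 and 9.18 TPM. Pfkl, the liver type, stood at 4.17, 5.62 and 5.11 TPM, and Pfkm, the muscle type, at 1.53, 2.57 and 1.68 TPM. The order Pfkp over Pfkl over Pfkm was the same in the 3 libraries. Slc2a1, which encodes the glucose transporter GLUT1, was low for a gene of this group, with 2.43, 2.46 and 2.92 TPM. Aldoc, the brain-type aldolase, was lower than Aldoa by 5.54 ± 0.48 on the log2 scale (SD, n = 3), at 2.84, 7.26 and 2.53 TPM. The lowest of the 16 genes was Pfkm.

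Pkm is a gene whose product depends on the choice between a pair of exons. The M1 form, typical of muscle and brain, and the M2 form, whose activity is regulated and which is known from proliferating and activated immune cells, differ only by 1 exon of 167 bases, used mutually exclusively. Transcripts with the M2 exon held 88.1%, 91.7% and 88.4% of the TPM of the transcripts that carry either exon in replicates 1, 2 and 3, and those with the M1 exon 11.9%, 8.29% and 11.6%. The second transcript table, made by a different program, gave 89.1 ± 1.31% (SD, n = 3) for M2, close to the 89.4 ± 2.03% of the first. Both exons are shown because the choice between them defines the M1 and M2 forms; capitals mark the 64 bases at which the aligned exons differ (identity 61.7%). They lie on the plus strand of mm10 at chr9:59675568-59675734 (M2) and chr9:59675029-59675195 (M1), and were read from the GENCODE M21 transcripts Pkm-201 and Pkm-202.
Pkm M2 exon: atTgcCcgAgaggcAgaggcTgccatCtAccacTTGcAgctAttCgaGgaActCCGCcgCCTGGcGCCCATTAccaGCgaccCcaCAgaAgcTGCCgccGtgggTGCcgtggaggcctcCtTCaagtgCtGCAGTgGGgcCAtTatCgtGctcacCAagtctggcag
Pkm M1 exon: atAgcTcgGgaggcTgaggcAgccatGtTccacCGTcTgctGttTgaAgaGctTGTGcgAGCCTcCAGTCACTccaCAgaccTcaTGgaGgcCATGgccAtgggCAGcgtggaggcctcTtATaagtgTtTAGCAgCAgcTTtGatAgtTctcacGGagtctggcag

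Pfkp likewise had a pair of alternative exons of 153 bases each, with a closer balance. Transcripts with the downstream exon held 59.6%, 55.3% and 54.1% of the TPM of transcripts with either exon, and those with the upstream exon the rest. The second transcript table put the downstream exon at 72.1 ± 2.57% (SD, n = 3) against 56.3 ± 2.88% in the first, so the size of this share depends on the estimator, while the downstream exon was ahead in every library of both tables. The exons lie on the minus strand at chr13:6593101-6593253 (downstream, transcript Pfkp-201) and chr13:6597859-6598011 (upstream, transcript Pfkp-207), and capitals mark the 63 bases that differ (identity 58.8%). They are printed to show how far exons of the same length and place in the gene differ.
Pfkp downstream exon: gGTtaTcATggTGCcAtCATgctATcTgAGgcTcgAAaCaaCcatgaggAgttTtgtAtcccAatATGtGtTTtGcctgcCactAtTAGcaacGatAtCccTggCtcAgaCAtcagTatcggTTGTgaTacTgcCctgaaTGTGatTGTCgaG
Pfkp upstream exon: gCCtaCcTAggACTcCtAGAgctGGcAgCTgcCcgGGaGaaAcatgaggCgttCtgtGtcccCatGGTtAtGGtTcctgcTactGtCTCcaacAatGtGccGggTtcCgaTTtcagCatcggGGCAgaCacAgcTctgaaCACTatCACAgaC

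The regulators of phosphofructokinase, which make and remove its allosteric activator, another bisphosphate of fructose, were both present. Pfkfb3, the isozyme with the highest kinase activity, had 9.06, 10.2 and 9.77 TPM in replicates 1, 2 and 3, and Pfkfb4 had 4.90, 6.55 and 5.36 TPM. Pfkfb4 was below Pfkfb3 in all 3 libraries, by a log2 ratio of -0.79 ± 0.14 (SD, n = 3). Pfkfb3 was 1 of 3 genes of the 55 with its highest TMM-scaled CPM in replicate 1.

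Of the 4 lactate and monocarboxylate genes, Ldha had the most abundant RNA. Ldha, the lactate dehydrogenase subunit that favours making lactate, had 94.2, 130 and 117 TPM, and Ldhb, the subunit typical of heart, 1.66, 1.91 and 1.90 TPM. The mean ratio was 62.0-fold, the widest mean of the 13 isozyme or paralog pairs compared. In replicate 3 Aldoa over Aldoc was wider, with a log2 ratio of 6.02 against 5.95 for Ldha over Ldhb. The exporter Slc16a3, which encodes the monocarboxylate transporter MCT4, had 3.59, 3.89 and 4.36 TPM. Slc16a1, which encodes MCT1, had 1.39, 1.42 and 1.77 TPM and was the lowest of the 4 genes. Slc16a3 was above Slc16a1 in every library, with a log2 ratio of 1.37 ± 0.08 (SD, n = 3). Bsg, basigin, the chaperone that both transporters need to reach the cell surface, is no member of the list and had 68.6, 115 and 83.8 TPM, far above either transporter.

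The pentose phosphate pathway was expressed along both of its branches. Its 7 genes had a median of 39.1 TPM, and 5 were at 10 TPM or more. Taldo1, transaldolase of the non-oxidative branch, led with 62.5, 95.8 and 79.3 TPM in replicates 1, 2 and 3. Pgd, phosphogluconate dehydrogenase, which makes NADPH, had 49.4, 73.7 and 57.0 TPM, and Tkt, transketolase, 41.6, 72.1 and 45.9 TPM. In rescaled TPM, Pgd and Tkt did not overlap (223 ± 10.3 and 195 ± 12.9, SD, n = 3). These levels take in all transcripts of a gene. Coding transcripts held only 19.5%, 15.6% and 19.5% of Tkt TPM in replicates 1, 2 and 3. The place of Tkt in this order, and above 10 TPM, was not tested over coding transcripts alone. G6pdx, glucose phosphate dehydrogenase, which opens the oxidative branch, had 39.1 ± 12.7 TPM (SD, n = 3), and Pgls, the lactonase that follows it, 26.6 ± 4.47. The enzymes that interconvert the pentose phosphates were lower: Rpe, the epimerase, at 8.41 ± 2.42 TPM (SD, n = 3), and Rpia, the isomerase, lowest with 2.37, 4.03 and 2.91 TPM.

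The genes that bring pyruvate into the cycle were of middling level, with a median of 11.0 TPM over 6. Dld, the dehydrogenase subunit shared by several complexes, had 14.2, 21.8 and 15.0 TPM in replicates 1, 2 and 3. Pdhb and Pdha1, the beta and alpha subunits of the pyruvate dehydrogenase core enzyme, had 13.2, 21.8 and 14.3 TPM, and 11.8, 20.2 and 12.5 TPM. These 3 lay close together, while Dlat, the acetyltransferase subunit, stood at 7.13 ± 2.25 TPM (SD, n = 3). Pdk1, a kinase that switches the complex off, had 4.37, 7.85 and 4.95 TPM. Pcx, which makes oxaloacetate from pyruvate and is known from liver and fat, was the lowest of all 55 genes in the gene table, at 0.10, 0.23 and 0.08 TPM from 18, 41 and 20 counts. In the second transcript table Me1 was lower, with 1.18 ± 0.23 rescaled TPM against 2.15 ± 1.32 for Pcx (SD, n = 3). There 88.6%, 40.3% and 82.6% of the Pcx TPM lay on Pcx-203, a transcript of 275 bases annotated without a coding sequence. It held 0% in the first table. Every subunit of the dehydrogenase was above Pcx in each library.

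The 16 TCA cycle genes had a median of 23.3 TPM, and 14 were at 10 TPM or more. Of succinate dehydrogenase, which joins the cycle to the respiratory chain, 3 subunits had the highest means. Sdha had 34.6, 56.2 and 40.0 TPM, Sdhb 30.8, 55.6 and 39.1 TPM, and Sdhd 34.6, 48.8 and 37.8 TPM in replicates 1, 2 and 3. Sdhc, the remaining membrane subunit, had 18.5, 37.3 and 25.9 TPM. The first 3 overlapped in range, also after rescaling, and Sdhc was below them in each library.

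The other enzymes of the cycle lay below or beside these. Mdh2, mitochondrial malate dehydrogenase, had 29.7, 49.7 and 40.2 TPM and was the highest of the 16 genes in replicate 3. Cs, citrate synthase, which starts the cycle, stood at 29.3 ± 6.84 TPM (SD, n = 3), Ogdh, the first subunit of the oxoglutarate dehydrogenase complex, at 25.2 ± 4.83, and Dlst, its succinyltransferase, at 21.3 ± 4.57. Idh2, the mitochondrial NADP-dependent isocitrate dehydrogenase, had 15.6, 29.2 and 22.8 TPM. Fh1, fumarase, had 8.0, 17.0 and 6.35 TPM. On TMM-scaled CPM its highest library was 1.54 times the lowest.

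The subunits of a complex were not all at the same level. The NAD-dependent isocitrate dehydrogenase is built from the catalytic subunit Idh3a and the regulatory subunits Idh3b and Idh3g. Idh3a had 3.81, 6.23 and 4.61 TPM, Idh3b 18.0, 33.2 and 20.8 TPM, and Idh3g 14.9, 26.5 and 15.3 TPM. The catalytic subunit was below both others in each library, and its highest value lay under the lowest of each. Of the succinyl-CoA synthetase subunits, Suclg1, the alpha subunit, had 12.9 ± 4.96 TPM (SD, n = 3). The ATP-forming beta subunit Sucla2 had 7.87, 15.3 and 9.46 TPM and the GTP-forming beta subunit Suclg2, the lowest gene of the cycle, 2.98, 5.71 and 3.43 TPM. Their log2 ratio was 1.43 ± 0.03 (SD, n = 3) in the gene table and 1.06 ± 0.25 in the second transcript table.

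Of the cytosolic partners of the cycle, Idh1, the cytosolic NADP-dependent isocitrate dehydrogenase, was the highest with 51.7, 82.4 and 62.6 TPM. Mdh1, cytosolic malate dehydrogenase, had 20.3, 42.1 and 25.9 TPM, and Acly, ATP citrate lyase, which returns citrate to acetyl-CoA for fatty acids and acetylation, 18.5, 29.6 and 22.6 TPM. Me1 was at 0.27, 0.37 and 0.22 TPM from 38, 74 and 44 counts. Idh1 was above its mitochondrial counterpart Idh2 by 1.56 ± 0.15 on the log2 scale (SD, n = 3), and Mdh2 above its cytosolic counterpart Mdh1 by 0.48 ± 0.21 in the gene table. In the second transcript table that last difference was 0.05 ± 0.22, within the spread of the libraries.

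Within each library the median log2(TPM + 1) of the 16 glycolysis genes was above that of the 16 TCA genes, by 1.40, 1.31 and 1.46 in replicates 1, 2 and 3. The mean over the same genes differed by 0.61 ± 0.06 (SD, n = 3). The glycolysis list spans from Pfkm at 1.93 TPM to Gapdh at 346 TPM, and the TCA list from Suclg2 at 4.04 to Sdha at 43.6 TPM. With all 55 genes in the order of their mean rescaled TPM, 10 of the 54 neighbouring pairs had ranges that did not overlap, so the fine order is not resolved. The breaks were between Gapdh and Aldoa, Aldoa and Pkm, Pgam1 and Taldo1, Pgd and Tkt, Tkt and Sdha, G6pdx and Cs, Dlat and Pfkfb4, Suclg2 and Rpia, Slc16a1 and Me1, and Me1 and Pcx.

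The balance between isozymes kept its direction for nearly every pair. A ratio of TPM within a library does not depend on the scale of that library. The ratios take in all transcripts of a gene, coding or not. Of 13 pairs, 12 had the same sign in all 3 libraries, and Hk2 with Hk1 was the exception. By exact permutation of signs (two-sided) each of the 12 had p = 0.25 (adjusted p = 0.271 over the 13 pairs), and Hk2 with Hk1 had p = 0.75. With 3 libraries this permutation test cannot give an unadjusted p below 0.25. In the second transcript table the mean ratio had the same sign for all 13 pairs, but the exception was another: Hk2 over Hk1 was -0.42 ± 0.20 (SD) with Hk2 lower in every library, and Mdh2 over Mdh1 was 0.05 ± 0.22 with signs that differed between libraries. The noncoding Hk2 transcript of 594 bases held 0% of Hk2 TPM in the second transcript table. Its part in the different Hk2 to Hk1 ratio was not tested. Ratios to Hk3 varied most among the hexokinases: its log2 ratio to Hk1 was 2.40, 1.97 and 2.74 in replicates 1, 2 and 3.

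**Figure D2:**
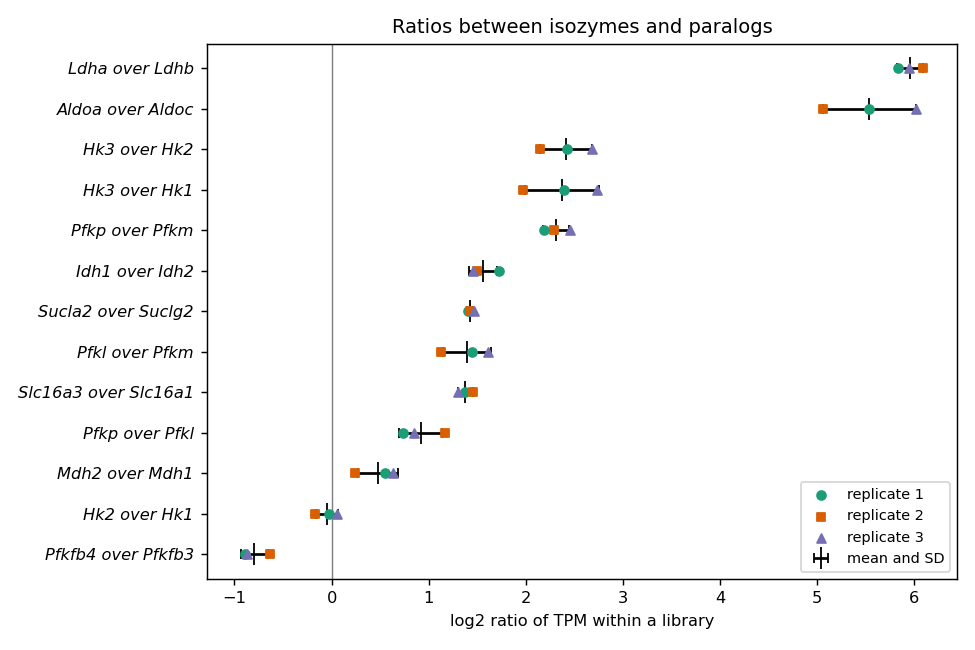
Log2 ratio of TPM in the gene table (horizontal axis) between the genes of 13 pairs (vertical axis); points are libraries, the vertical tick is the mean and the bar the SD over 3 libraries. Ldha over Ldhb and Aldoa over Aldoc lie above 5 in all libraries, and only Hk2 over Hk1 has points on both sides of 0.

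Alternative exons were also used in Ogdh and Acly. In Ogdh, transcripts with a downstream exon of 103 bases held 85.2%, 91.1% and 90.5% of the TPM of transcripts with either of a pair of exons, and those with an upstream exon of 91 bases the rest. The second transcript table gave 88.6 ± 3.48% (SD, n = 3) for the downstream exon. The exons lie on the plus strand at chr11:6316978-6317080 (transcript Ogdh-201) and chr11:6316765-6316855 (transcript Ogdh-202), and are printed because the choice between them sets which stretch of the protein is made.
Ogdh downstream exon: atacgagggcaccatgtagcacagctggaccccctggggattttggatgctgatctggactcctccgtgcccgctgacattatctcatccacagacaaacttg
Ogdh upstream exon: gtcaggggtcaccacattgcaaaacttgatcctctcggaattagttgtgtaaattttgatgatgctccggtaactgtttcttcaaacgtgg
In Acly a short cassette exon of 30 bases, at chr11:100503160-100503189 on the minus strand, was included in transcripts that held 51.0%, 50.3% and 45.2% of the TPM of the transcripts that span it. The second transcript table gave 56.3 ± 2.24% (SD, n = 3), so neither form was the minor one by a wide margin in either table. As its length is a multiple of the codon length, inclusion adds whole codons and keeps the reading frame.
Acly cassette exon: attcagtcccaagtccaagatccctgcaag

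**Figure D3:**
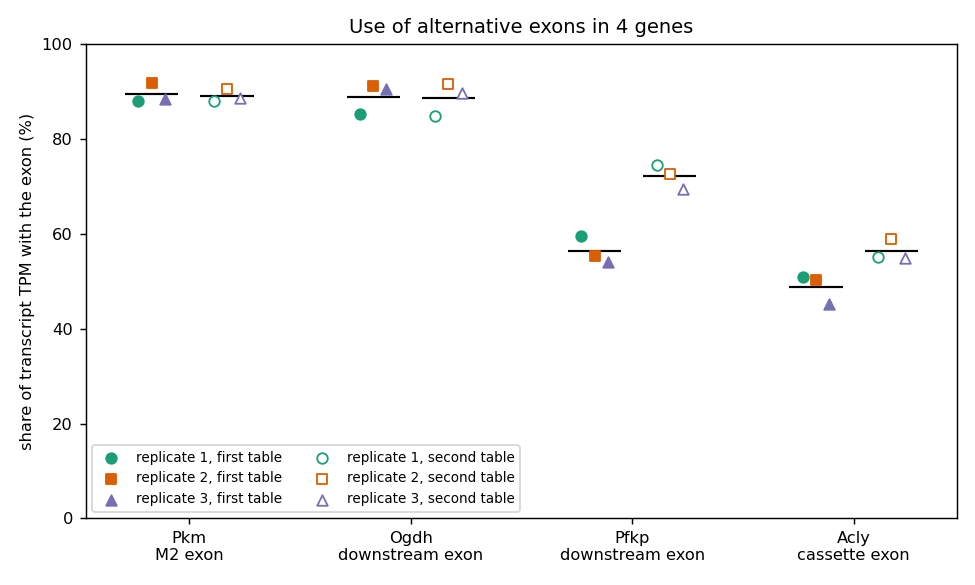
Share of transcript TPM that carries the exon (vertical axis, percent) in 4 genes (horizontal axis); filled points are libraries in the first transcript table, open points in the second, and lines are means. The M2 exon of Pkm and the downstream exon of Ogdh lie above 80% in both tables, while the Pfkp exon moves from 56.3% to 72.1% between tables.

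Most genes were represented by coding transcripts. The leading transcript held 90% or more of the TPM of its gene for 26 of the 55 genes and was coding for 53. The median share of coding transcripts was 99.2%. It was below 80% for 9 genes, namely Gpi1, Hk3, Tkt, Mdh2, Dlst, Hk2, Dlat, Pfkfb4 and Idh3a. For Tkt the transcript Tkt-209, annotated as processed and without a coding sequence, held 77.9%, 73.5% and 75.6%, and the coding Tkt-201 only 19.5%, 15.6% and 19.5%. For Idh3a the retained-intron transcript Idh3a-203 held 39.9 ± 3.73% (SD, n = 3) in the first table but 13.5% in the second, which put 55.8% on Idh3a-204, a transcript marked for nonsense-mediated decay. Both tables put most of Tkt on Tkt-209 (85.9% in the second). The same transcript led in both tables for 48 of the 55 genes.

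For Hk3 the transcript mix differed between libraries. Its coding transcript of 3219 bases held 21%, 77.9% and 23.2% of its TPM in replicates 1, 2 and 3, and another coding transcript of 2945 bases held 50.8%, 11.6% and 46.0%. Replicate 2 thus stood apart from the other libraries in the transcripts of this gene, and it was also the library with the lowest Malat1 and the greatest depth; their part in this difference was not tested. In Gpi1 the coding transcript of 2884 bases held 65.1%, 39.5% and 56.1%, and a short one of 581 bases 0%, 28.3% and 26.2%.

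The libraries differed in most of these genes by more than counting error. With a chi-square test of the counts against Poisson sampling, 46 of the 55 genes differed between libraries at an adjusted p under 0.05 (Benjamini-Hochberg over all 13237 genes tested), and so did 67.9% of all genes tested. The genes described here were deeper than most, with a median of 2487 counts per library against 589 over all genes tested, and the test calls smaller differences at greater depth. Pfkm, Pfkfb4, Ldhb, Rpia, Pcx, Idh3a, Dlst, Sdhd and Me1 were the 9 that did not pass. Without replicate 2, 27 of the 46 were still called and none of the 9 was added, while 4374 of all genes passed. Without replicate 1 it was 35 of the 46 and 7564 of all genes, and without replicate 3 it was 36 and 6996.

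The size of the differences was modest. The highest library was within 1.5-fold of the lowest for 50 of the 55 genes, and for 72.8% of all genes tested. This range includes counting error, which is larger for genes with few counts. The biological coefficient of variation (BCV) is the spread between libraries beyond counting error as edgeR estimates it. The estimate is drawn toward that of genes with similar counts, so a gene without excess spread also receives a value. It had a median of 12.5% over the 53 genes that averaged 100 counts or more, against 14.6% over the 10065 such genes and 17.5% over all genes tested. These comparisons are not matched for depth (median of 2487 counts against 589 over all genes tested). They do not show that the 55 genes vary less than others of their depth. Dlst, Sdhd and Ogdh had the lowest values, 10.2%, 10.4% and 10.6%, close to the lowest of all genes tested, 10.2%. Dlst and Sdhd did not pass the chi-square test (adjusted p = 0.539 and 0.222, Benjamini-Hochberg). Their BCV therefore does not show spread beyond counting error. Dlst stood at 81.5, 84.1 and 82.6 CPM in replicates 1, 2 and 3, Sdhd at 70.9, 68.0 and 71.0 CPM, and Ogdh at 164, 163 and 172 CPM.

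**Figure D4:**
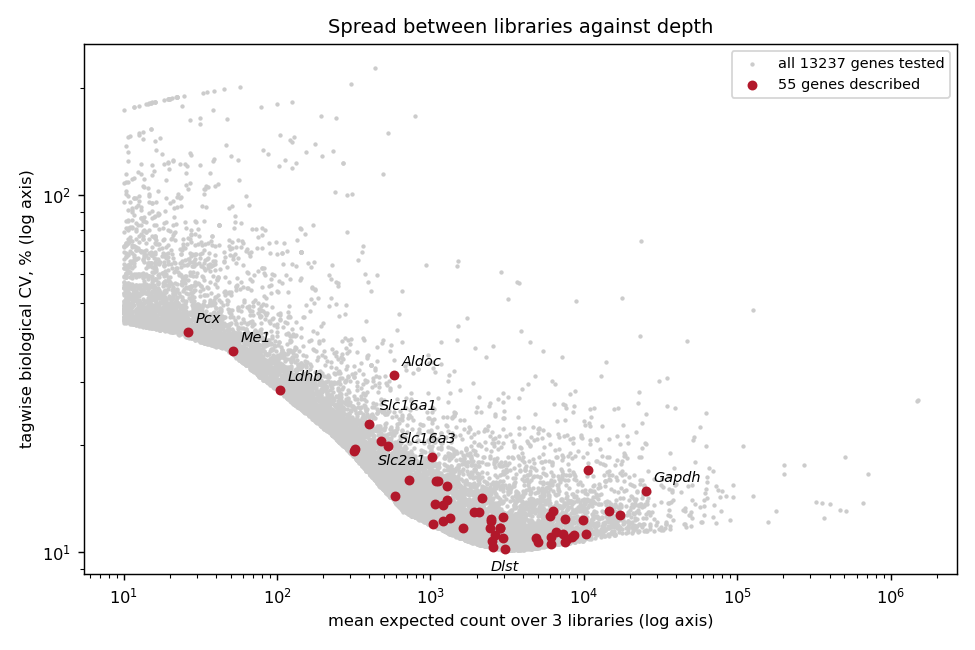
Tagwise BCV in percent (vertical log axis) against mean expected count over 3 libraries (horizontal log axis); red points are the 55 genes and grey points all 13237 genes tested. The red points range from 10.2% for Dlst to 41.3% for Pcx, which has the lowest count, and Aldoc stands out at its depth with 31.4%.

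Aldoc was the most variable of the genes that averaged 100 counts or more, with a BCV of 31.4%. It had 12, 21.7 and 9.12 CPM in replicates 1, 2 and 3 (adjusted p = 6.79e-51, chi-square test with Benjamini-Hochberg adjustment), from 275, 1158 and 316 counts, and was highest in replicate 2 and lowest in replicate 3 under all 6 scalings tried. Ldhb had the next highest BCV, 28.5%, at 2.54, 2.87 and 3.03 CPM from 58, 153 and 105 counts. It did not pass the chi-square test (adjusted p = 0.608, Benjamini-Hochberg), so spread beyond counting error was not shown for it.

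The transporters of glucose and lactate came next. On TMM-scaled CPM replicate 2 was lowest for each, as it was for 32.9% of all genes tested. It was lowest for 11 of the 55 genes, with Hk3, Pgls and Ldha also among them. Slc16a1 had 11.9, 8.36 and 13.8 CPM with a BCV of 22.8%, Slc2a1 14.8, 10.3 and 15.7 CPM with 20.5%, and Slc16a3 16.8, 11.5 and 17.0 CPM with 19.8%. For these 3 genes replicate 2 was lowest and replicate 3 highest under 5 of the 6 scalings, whereas on TPM as deposited replicate 1 was lowest. All 3 passed the test, with adjusted p = 4.14e-13, 5.61e-12 and 1.75e-12 by the chi-square test with Benjamini-Hochberg adjustment, and none of them did so without replicate 2.

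The other glucose transporters did not share a single pattern. Slc2a6 had 19.0, 7.12 and 9.98 CPM and Slc2a8 14.6, 11.8 and 18.4 CPM, both lowest in replicate 2. Slc2a9 had 13.6, 15.6 and 12.8 CPM and Slc2a3, the transporter GLUT3, 6.13, 8.81 and 7.41 CPM, both highest there. Slc2a2 and Slc5a1, the transporters of liver and gut, had no count in any library.

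By library, TMM-scaled CPM was highest in replicate 1 for 3 of the 55 genes, in replicate 2 for 32 and in replicate 3 for 20, against 26.2%, 44.3% and 29.5% of all genes tested. It was lowest in replicate 1 for 30, in replicate 2 for 11 and in replicate 3 for 14, against 34.6%, 32.9% and 32.5%. Replicate 1 was thus seldom the highest for these genes, and it is the library with the stromal markers at 293 CPM; the part of these markers in the result was not tested. The split between replicates 2 and 3 depended on the scale. With library totals alone or in the second transcript table replicate 3 was highest for 9 genes, and on rescaled TPM for 28.

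Over all genes tested, TMM-scaled CPM was highest in replicate 2 for 44.3% and in replicate 3 for 29.5%. By role, replicate 2 was highest for 10 of the 16 glycolysis genes, 11 of the 16 TCA genes and 5 of the 6 genes of pyruvate entry. Replicate 3 was highest for all 4 of the lactate and monocarboxylate genes, including Ldhb, which did not pass the chi-square test. That last count holds for TMM and DESeq2 scaling and on rescaled TPM; with library totals alone and in the second transcript table Ldhb was highest in replicate 2, and on TPM as deposited so were Ldha and Ldhb. Fh1 was at 24.7, 33.1 and 21.5 CPM, Hk3 at 272, 242 and 364 CPM and Pgls at 29.5, 26.7 and 37.2 CPM. Fh1 was highest in replicate 2, and Hk3 and Pgls in replicate 3, under each of the 6 scalings. Gapdh, often used as a reference gene, was 589, 780 and 608 CPM and ranged over 1.32-fold.

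**Figure D5:**
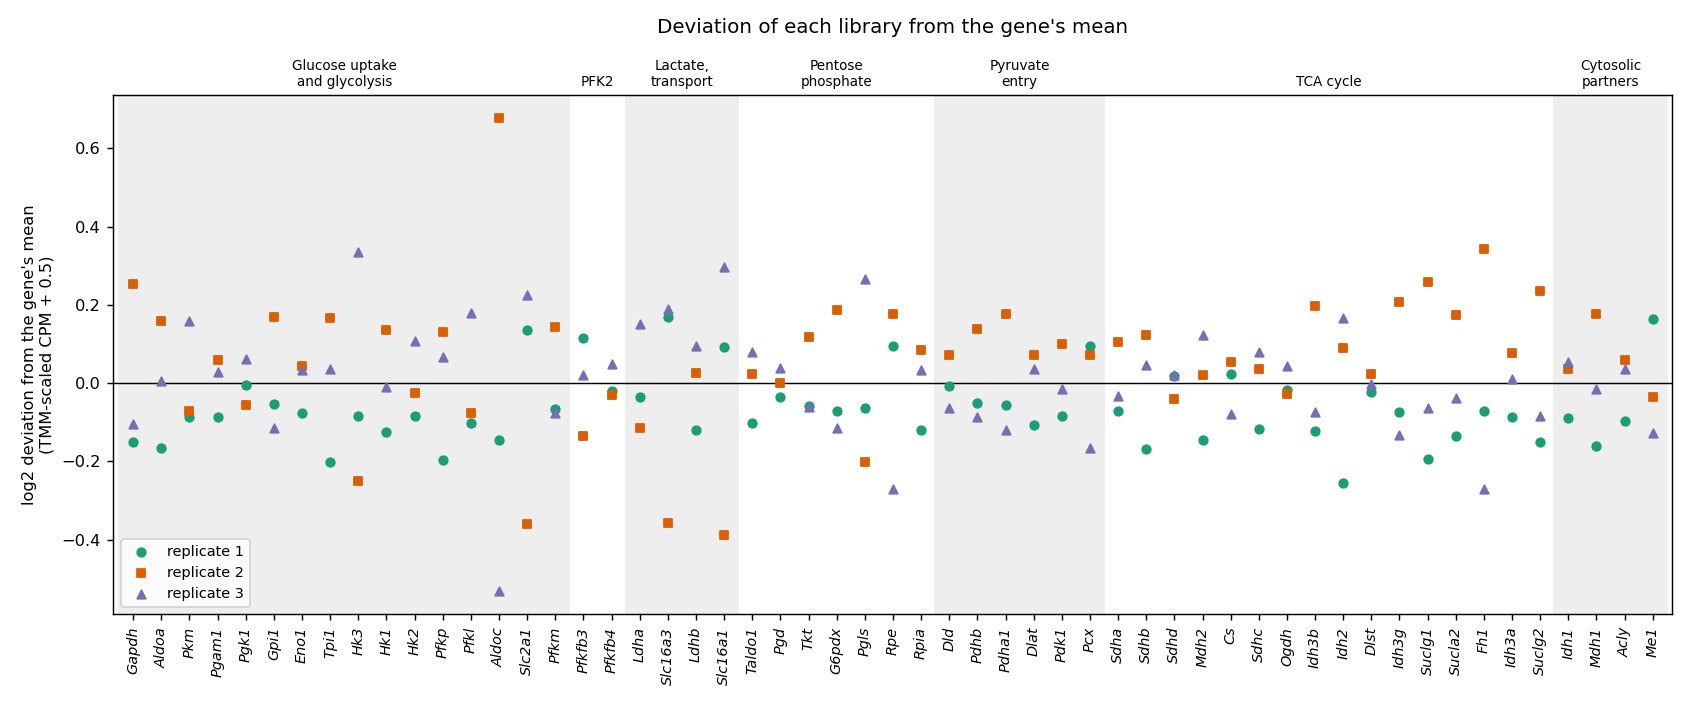
Deviation of each library from the mean of the gene in log2 TMM-scaled CPM plus 0.5 (vertical axis) for the 55 genes by role (horizontal axis). Aldoc shows the widest spread, from -0.53 to 0.68, and replicate 2 lies lowest for Slc2a1, Slc16a3 and Slc16a1 at -0.36, -0.36 and -0.39.

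Genes next to the pathway were read from lists chosen by name. Of 14 isozymes known from other tissues, 7 had no count in any library, namely the liver pyruvate kinase Pklr, the testis genes Pgk2, Gapdhs, Ldhc and Pdha2 and the transketolase-like Tktl1 and Tktl2. The highest were Pfkfb2 at 3.46 ± 0.89 TPM (SD, n = 3) and the neuronal enolase Eno2 at 1.86 ± 0.28. A count of 0, which allows up to 3 counts, amounts to 0.131, 0.0562 and 0.0865 TMM-scaled CPM in order of replicate, for counting error only.

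The genes specific to gluconeogenesis were mostly at or near 0. Pck1, Fbp1 and Fbp2, the cytosolic carboxykinase and the bisphosphatases, had no count in any library, and G6pc had 0, 1 and 2 counts. G6pc3, the ubiquitous glucose phosphatase subunit, had 6.70 ± 0.96 TPM (SD, n = 3) and Pck2 3.14 ± 0.60. Glycogen metabolism in contrast held a gene at 100 TPM or more. Gyg, glycogenin, the primer of glycogen, had 103, 202.1 and 97.2 TPM, followed by Ugp2 at 20.8 ± 6.13 TPM (SD, n = 3), while muscle phosphorylase Pygm was at 0.110 ± 0.115.

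Among carriers and regulators of pyruvate dehydrogenase, Mpc1, a subunit of the mitochondrial pyruvate carrier, led with 58.6, 116 and 60.2 TPM, and the oxoglutarate carrier Slc25a11 had 28.9 ± 6.37 TPM (SD, n = 3). Mpc2, the partner of Mpc1 in the carrier, had 13.2, 21.2 and 15.3 TPM, lower than Mpc1 in each library. Pdk4 had 2, 3 and 0 counts. Among further enzymes around the cycle, Glud1, glutamate dehydrogenase, led with 47.6 ± 12.5 TPM (SD, n = 3), followed by the transaminase Got1 at 31.5 ± 8.83, and the succinate receptor Sucnr1 had no count.

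Acod1, which makes the antimicrobial metabolite itaconate from the cycle and is known to be induced by lipopolysaccharide, had 7.12, 3.09 and 2.98 TPM, or 34.8, 10.4 and 13.3 CPM. It was highest in replicate 1, unlike most genes of the cycle. Hif1a, the hypoxia-inducible factor subunit that drives many glycolytic genes, had 14.7 ± 3.35 TPM (SD, n = 3) and was second in its list after Bsg, while the hydroxylase Egln3 was lowest at 0.0900 ± 0.0608. Of the genes tested in these lists, the share that differed between libraries was 10 of 10 for the genes around the cycle, 8 of 13 for carriers and regulators, 6 of 9 for glycogen, 5 of 10 for the hypoxia factor list, 4 of 4 for glucose transport, 1 of 3 for gluconeogenesis and 1 of 5 for isozymes of other tissues, beside the 67.9% of all genes.

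Some values carry uncertainty from copies and neighbours. Glycolytic genes have many processed pseudogenes, and 373 annotated pseudogenes matched 17 of the 55 genes at 85% identity or more over 50% or more of their length, 287 of them Gapdh. The pseudogenes took over 1% of the combined counts for 3 genes: 4.39%, 3.19% and 4.37% for Gapdh, 3.67%, 7.88% and 6.38% for Pgk1, and 0%, 1.26% and 4.78% for Ldhb in replicates 1, 2 and 3. In the second transcript table the highest such share was 14.5%, for Pgk1. Protein-coding genes on the opposite strand overlap Pfkm (Senp1), Pfkp (Pitrm1), Tpi1 (Spsb2), Gapdh (Iffo1), G6pdx (Ikbkg), Rpe (Kansl1l), Idh3b (Nop56) and Mdh1 (Wdpcp), each at 1 TPM or more. Senp1, with a mean of 3.38 TPM, was above Pfkm at 1.93 TPM. Pitrm1 had 8.02 TPM beside 9.58 TPM for Pfkp, and the others were also below the gene they overlap. Whether counting used the strand is not given in the sources used here, so reads in the overlaps cannot be told apart with certainty. That limit bears on the levels of Pfkp and Pfkm and on their order with Pfkl. The tables agreed for most genes on rescaled TPM: the estimates of 54 genes were within 1.5-fold of each other, and Pcx was the exception, with 0.482 ± 0.173 in the gene table and 2.15 ± 1.32 in the second transcript table (SD, n = 3). In the latter the noncoding Pcx-203 held 88.6%, 40.3% and 82.6% of the Pcx TPM. Pdk1 followed with 20.9 ± 1.70 and 28.5 ± 5.0, and Suclg2 with 14.7 ± 1.71 and 20.0 ± 5.76.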

How the data were processed

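Total RNA of 3 cytosolic BMDM libraries was measured, from 1 µg of RNA with a size range of 250 to 400, per the labels. Per the deposited readme files the files use mm10 and GENCODE M21. The sources used here give neither program versions nor the strand setting. The deposited expected counts are the authors' estimates of reads per gene or transcript, unnormalized. The deposited TPM values are scaled by the authors to the same total in each library. The percent values in the deposited transcript tables state how a gene's TPM is split over its transcripts; shares printed here were recomputed from the transcript TPM.

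All 26345 rows that name no annotated gene (26248 tRNA, 96 spike-in and 1 phage row) were left out; they held at most 108582 counts in a library. Of the 2 Aldoa identifiers the higher was used. Counts were rounded and tested per gene against Poisson sampling (chi-square index of dispersion, TMM library sizes from edgeR 4.0.16 in R 4.3.3, mean count of 10 or more, Benjamini-Hochberg at 0.05 over 13237 genes); edgeR also gave the BCV from a design without a contrast. The test was tried on counts simulated by Poisson sampling, the model it assumes, with some genes changed by known folds. That checks the calculation and not how the model holds in these libraries. Deviations used log2(CPM + 0.5), and list medians log2(TPM + 1), which understates differences of low genes. Isozyme ratios used an exact sign-flip permutation test. Pseudogenes were matched with BLAST 2.17.0, and exon sequences were read from GENCODE M21 transcripts. DESeq2 1.42.0, pandas 2.3.3, numpy 2.4.6, scipy 1.17.1 and, for plots, matplotlib 3.10.9 under Python 3.11.15 were also used.

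The 55 genes, their roles and the lists were chosen with earlier results of these data known, and the alternative exons after transcript shares had been seen. Full values are given for the 3 highest and the lowest gene of each role, all paralog pairs, the 5 highest and 3 lowest BCV among genes averaging 100 counts or more, and the 3 genes that differ most between tables; of each neighbouring list the 2 highest and the lowest are named. The values of 1 listed gene are not reported here. Mpc2, Slc2a3, Slc2a9, Acod1, Pck2 and G6pc, the other genes at 0 and the transcript examples of Hk3, Gpi1, Tkt and Idh3a were named after their values were seen. Alternatives were other scalings, count filters and pseudocounts, means for medians, the second transcript table and leaving out each library.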

Additional observations from a re-analysis of the deposited data

How the results depend on the processing

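No paired analysis was possible because the series holds a single group. Leaving out each library in turn gave 27 to 36 of the 55 genes that differed between libraries (46 with all 3) and 4374 to 7564 of all genes (8984 with all 3), lowest without replicate 2 in both cases. Other scalings, count filters and the second transcript table kept both counts within 1.5 times. The median of glycolysis minus TCA was 1.35 to 1.43 when a library was left out, and 0.61 when means replaced medians. The number of genes highest in replicate 1 was 3, and became 0 on TPM as deposited and 5 on rescaled TPM. For replicate 2 it was 32, and became 50 on TPM as deposited. For replicate 3 it was 20, and became 9 with library totals alone, 5 on TPM as deposited and 9 in the second transcript table. The highest library was the same under all 6 scalings for 25 of the 55 genes. The log2 ratio of Hk2 to Hk1 turned from -0.05 to 0.016 without replicate 2 (range -0.10 to 0.016) and was -0.42 in the second transcript table. The other 12 mean ratios kept their sign in each alternative, though Mdh2 over Mdh1 fell to 0.05 in the second transcript table, with signs that differed between libraries. The second transcript table moved the Pfkp downstream exon to 72.1% and the Acly exon to 56.3%; the cause was not tested. Of the rescaled and second-table levels, 55 and 52 moved by more than 1 SD of the deposited TPM, as both change the scale. Depth limits Pcx and Me1 most, with 18 to 41 and 38 to 74 counts.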
